A study of Mus musculus with 26 samples.

Results

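Nuclear receptors are transcription factors that are switched or tuned by small fat-soluble molecules such as retinoic acid, thyroid hormone, vitamin D, sterols and fatty acids. The 38 genes described here are the nuclear receptors other than the classical steroid receptors and the COUP-TF genes Nr2f1 and Nr2f2. They were matched by gene symbol in both count tables, and all 38 were found among the 41442 rows of each table.

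The cells came from the mesenchyme, the loose supporting tissue, of the mouse reproductive tract. Fetal cells were Gli1+ cells sorted from the mesonephros, the tissue that carries the Wolffian and Müllerian ducts, of both sexes at E14.5 or at E16.5 (E marks the embryonic day), in 4 groups of 3 RNA-seq libraries. These embryos carried Gli1-CreER and Rosa-Tomato, so that tamoxifen turns on a red reporter in cells in which the hedgehog target Gli1 is active. Uterine cells at E19.5 were Amhr2+ or Gli1+, from Amhr2-Cre; Rosa-Tomato or Gli1-CreER; Rosa-Tomato animals, in 2 groups of 3 libraries. Amhr2 encodes the receptor of anti-Müllerian hormone, and its Cre needs no tamoxifen, while Gli1-CreER does. By the labels, dams of both genotypes received tamoxifen at 1 mg on E12.5 and E13.5. The labels do not say that libraries of a group came from separate animals or litters, so the p-values measure the spread between these libraries, which may be technical.

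The 12 fetal libraries held 23382983 to 64602477 counts and the 6 uterine libraries 28709191 to 37541045. Levels are given as CPM (counts divided by the library total and set on a common scale) after TMM scaling of library size, and levels of different genes are compared only per kb of exon length. The mesenchyme markers (Pdgfra, Pdgfrb, Col1a1, Col3a1, Vim, Tcf21, Twist1 and Dcn) were all detected and summed to between 21732 and 46579 CPM over the 18 libraries, while the markers of duct epithelium summed to 42.3 to 158 CPM. All 8 smooth muscle markers, led by Acta2, were detected, and their sum differed between groups, at 390 to 416 CPM in females and 701 to 1000 CPM in males at E14.5, 551 to 655 CPM in females and 1850 to 3052 CPM in males at E16.5, and 1310 to 1959 CPM in Amhr2+ against 2298 to 2558 CPM in Gli1+ uterine cells. Their part in the differences below was not tested. Among the other listed cell types, sums ranged from 38.5 to 137 CPM for gonad supporting cells and 24.5 to 129 CPM for endothelium. They ranged from 13.8 to 85.8 CPM for immune cells, 17.1 to 55.7 CPM for neurons and glia, and 0.644 to 6.84 CPM for germ cells. Some sums rest largely on 1 gene. Foxl2 led the gonad list in each group, with a mean of 99.4 CPM beside a median sum of 128 CPM in Amhr2+ cells. Fshr of that list had 3 counts or fewer in each group. Cd68 led the immune list in each group, with 57.4 CPM beside a median sum of 62.4 CPM in E14.5 females. Emx2 led the duct epithelium list in every group but E14.5 males. In these bulk libraries fewer cells of a type and less RNA per cell cannot be told apart.

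Of the 38 genes, 28 passed the filter on low counts in the fetal table and 25 in the uterine table. Pparg, Nr1h4, Nr1i2, Nr1i3, Hnf4a, Rxrg, Nr2e1, Nr2e3, Esrrb and Nr0b2 passed in neither, and Nr5a1, Nr5a2 and Nr0b1 passed only in the fetal table. Differences were tested with edgeR's quasi-likelihood test, with p-values adjusted over all genes of a table, and a gene was called at an adjusted p under 0.05. Between the sexes at E14.5, 2 of the 28 tested receptor genes were called, or 7.14%, beside 6.28% of all genes tested. At E16.5 the sexes differed in 15 of 28 (53.6%), beside 27.3% of all genes, and 12 of the 15 were higher in females. With age 13 of 28 were called in females (46.4%), beside 39.6% of all genes, and 7 of 28 in males (25%), beside 23.3%. The sex difference itself differed between the ages, by the interaction test, in 6 of 28 (21.4%), beside 10.0% of all genes. In the uterus 11 of 25 (44%) differed between Amhr2+ and Gli1+ cells, beside 23.9% of all genes, with 4 higher and 7 lower in Amhr2+.

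The median log2 difference of the 28 genes between females and males was -0.03 at E14.5 and 0.16 at E16.5, against -0.01 and 0.01 over all genes tested. For age it was 0.08 in females and 0.04 in males, against 0.00 and -0.01. For the interaction it was 0.24, against 0.02. In the uterus the median over the 25 genes was -0.07, against -0.00 over all genes. The fetal comparisons share libraries, so they are not independent of one another. In every comparison of 2 groups, the CPM of the receptor genes called did not overlap between the groups. The same held for some that were not called, such as Thra, Rara, Rxra, Ppard and Esrrg between the sexes at E14.5. A lack of overlap therefore does not set the called genes apart, and its share over all genes was not counted.

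**Figure D1:**
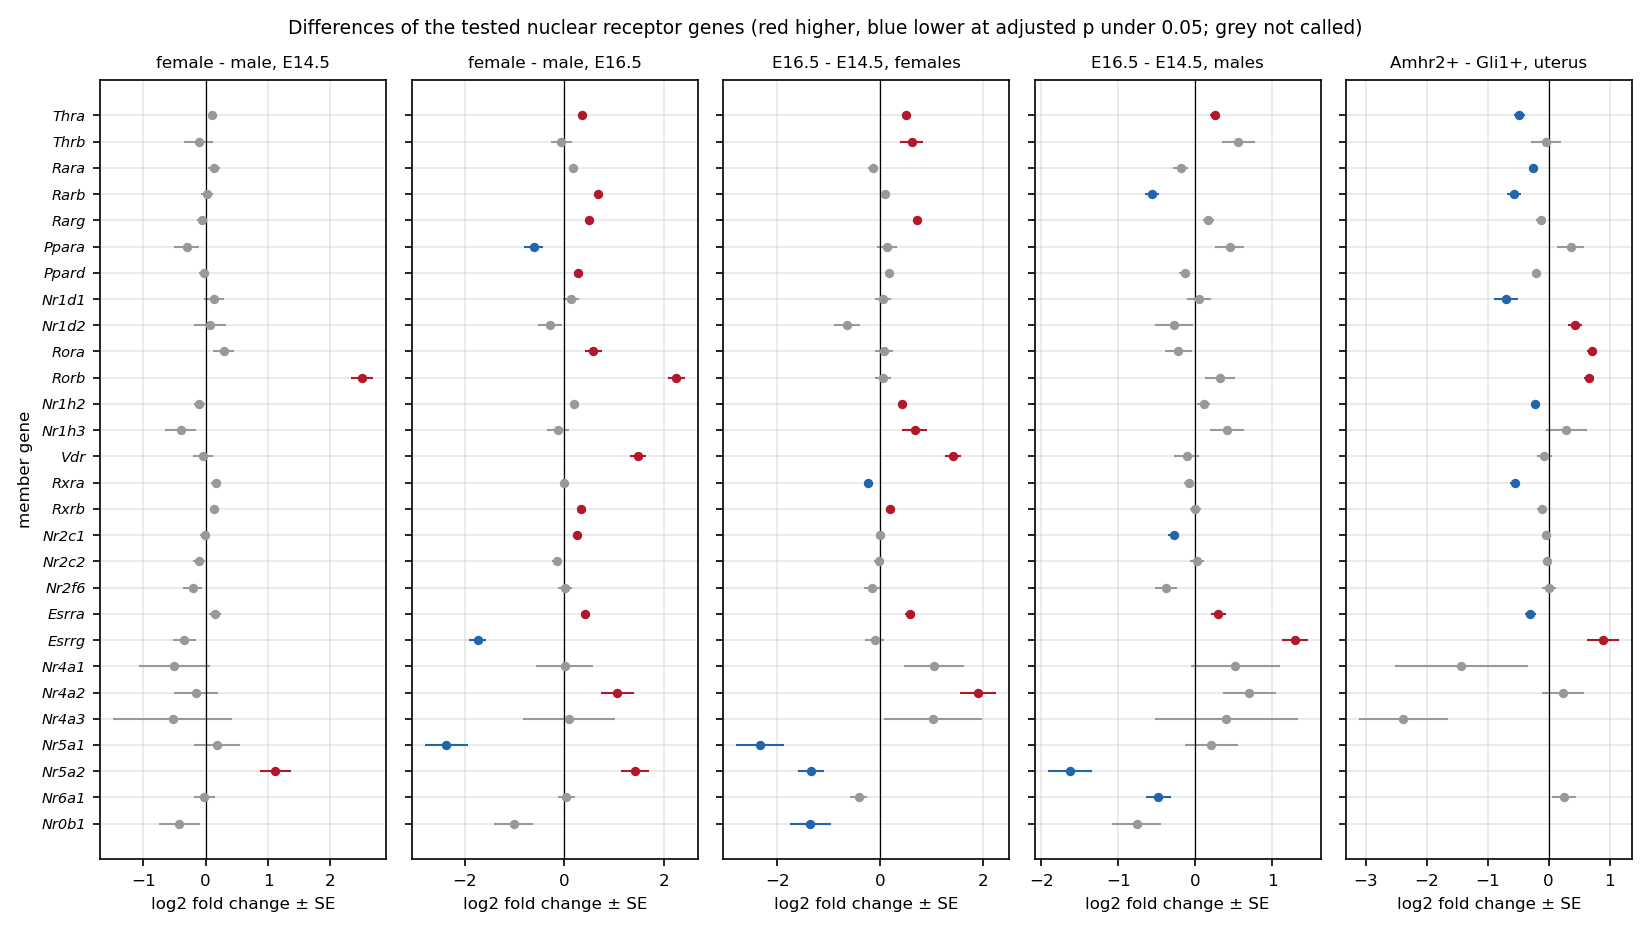
Log2 fold change with its standard error for each tested nuclear receptor gene (one line each) in the 5 comparisons of 2 groups (panels), with genes called at an adjusted p under 0.05 in red where higher and blue where lower. In the E16.5 panel 12 genes are red and 3 are blue, whereas in the E14.5 panel only Rorb and Nr5a2 are coloured.

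Per kb of exon length, Nr4a1, an immediate-early gene of the Nr4a family, had the highest mean of the 38 genes in all 6 groups, from 44.4 ± 5.99 CPM per kb (SD, n = 3) in Amhr2+ uterine cells to 338 ± 120 in E16.5 females. Thra, which encodes thyroid hormone receptor alpha, had the next highest mean in all 6 groups, at 34.6 ± 0.0662 CPM per kb in E14.5 males and 55.6 ± 3.74 in Gli1+ uterine cells. In Amhr2+ uterine cells these 2 neighbours lay at 44.4 ± 5.99 and 39.8 ± 3.98 CPM per kb, a gap within their spread. In Gli1+ uterine cells the order rested on replicate 3: Nr4a1 lay at 57, 17 and 285 CPM per kb and Thra at 52.7, 59.8 and 54.3. Rxra, the obligate partner of many other receptors, came next in the 4 fetal groups at 21.8 to 25.8 CPM per kb, and Rarg came next in both uterine groups at 19.6 ± 1.58 (Amhr2+) and 21.5 ± 0.457 CPM per kb (Gli1+), where Rxra in Gli1+ cells, at 21.4 ± 1.9, did not differ from it beyond the spread. At the other end Nr0b2 had no count in any of the 18 libraries, and Nr2e1 had none in the uterine libraries.

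**Figure D2:**
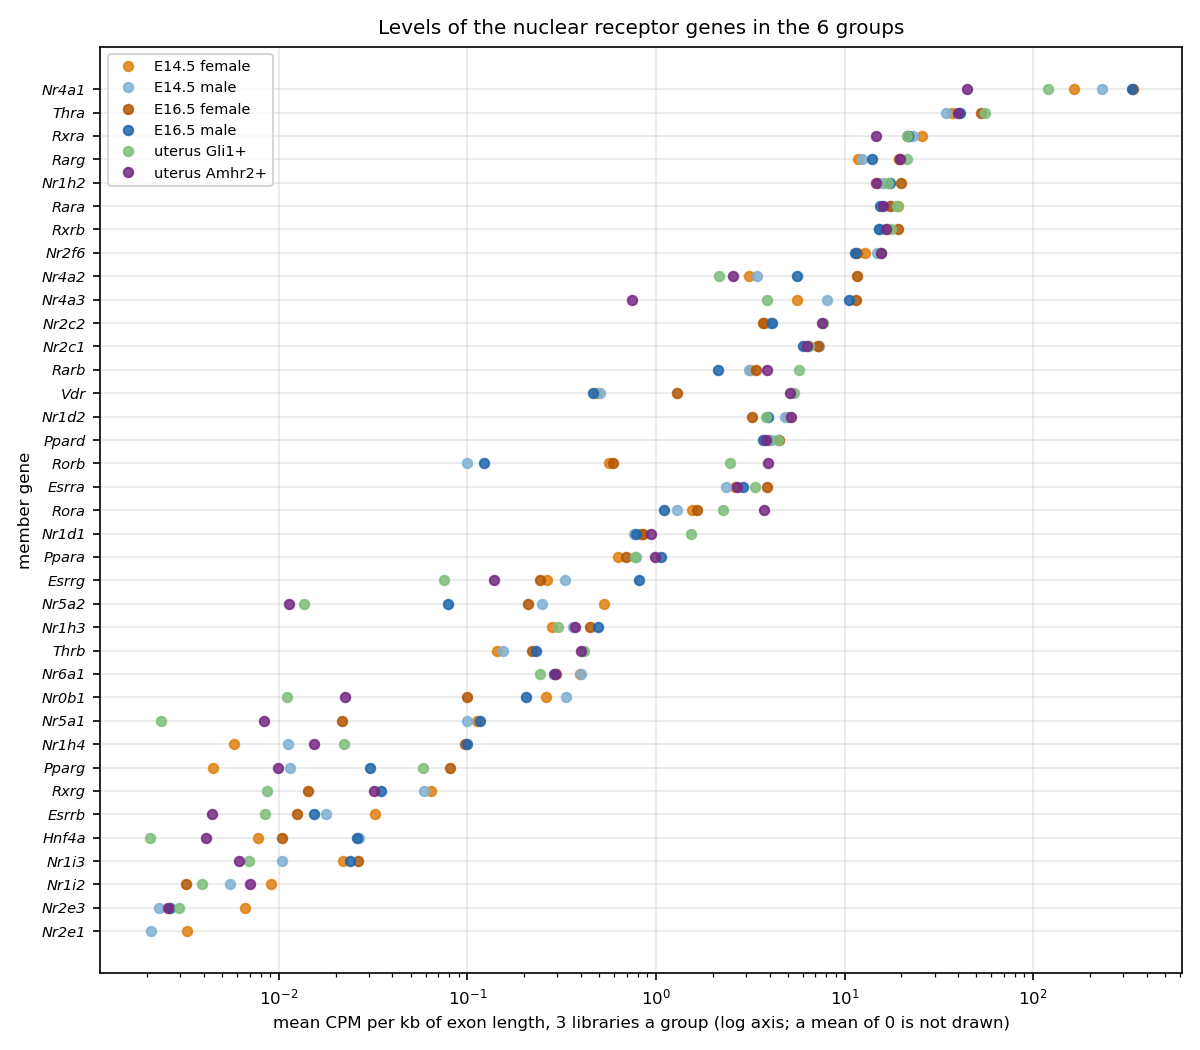
Mean CPM per kb of exon length (log axis) of each nuclear receptor gene in the 6 groups, with one coloured point per group of 3 libraries. Nr4a1 and Thra lie farthest right, and Nr0b2 is not drawn because it has no count. The fetal and uterine points of Rorb and Vdr lie apart, but those libraries were made with different kits and were not compared by a test.

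Retinoic acid receptors (Rara, Rarb and Rarg) bind DNA as partners of RXRs (Rxra, Rxrb and Rxrg) and switch on target genes when retinoic acid binds. Rarb is the textbook example of a gene that is itself a retinoic acid target, through a repeat of receptor half-sites next to its start. The RefSeq promoter of Rarb on GRCm38.p6 lies at chr14:16575427-16575726 on the minus strand. The repeat was searched there as GTTCA, any 6 bases, GTTCA. This pattern leaves out the first base of each half-site, and that of the second is counted among the 6 bases. The match spanned 52 to 37 bases before the start and is shown in capitals.
Rarb: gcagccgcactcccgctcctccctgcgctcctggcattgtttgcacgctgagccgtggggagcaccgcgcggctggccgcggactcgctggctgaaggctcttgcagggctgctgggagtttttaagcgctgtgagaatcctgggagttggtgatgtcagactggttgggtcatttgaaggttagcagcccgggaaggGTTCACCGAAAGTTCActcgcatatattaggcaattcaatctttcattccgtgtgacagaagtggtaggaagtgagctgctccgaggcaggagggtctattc
Searched on both strands of all 32851 RefSeq promoters of 300 bases, this repeat was present in 25 (0.0761%), and among the promoters of the 36 receptor genes in the table only Rarb held it. All 300 bases lay inside one ATAC-seq peak of open chromatin, chr14:16574981-16575811. The peak list covers all 8 ATAC-seq samples of fetal cells together, so it does not show in which sex or age the site was open. A match is a description of the letters and shows no binding.

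Rarb was called between the sexes at E16.5 and not at E14.5, where it gave 0.02 (adjusted p = 0.94). At E14.5 it measured 18.1, 15.1 and 16.8 CPM in females and 15.6, 18 and 15.7 CPM in males. At E16.5 it measured 17.9, 17.9 and 17.8 CPM in females and 10.4, 11.8 and 11.3 CPM in males. The males at E16.5 lay below every other fetal library. The log2 difference at E16.5 was 0.68 (SE 0.0915, adjusted p = 4.11e-05), males fell with age by 0.56 on the log2 scale (adjusted p = 0.000315), and the sex difference changed between ages by 0.66 (interaction, adjusted p = 0.00343). In the uterus Rarb was lower in Amhr2+ cells, at 20.4, 19.6 and 21.1 CPM, than in Gli1+ cells, at 26, 29.4 and 35.3 CPM (log2 difference -0.57, SE 0.114, adjusted p = 0.0088). The Rarb row overlaps that of Top2b on the other strand, and the fetal kit kept no strand.

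Rarg, the gamma receptor at chr15:102234938-102257517, showed its sex difference through a rise in females. Female libraries held 47.9, 49.3 and 54.1 CPM at E14.5 and 80.9, 82 and 86.4 CPM at E16.5. Male libraries held 47.3, 55.4 and 54.6 CPM at E14.5 and 62, 56.5 and 59 CPM at E16.5. The E16.5 females stood above all other fetal libraries. The rise in females was 0.72 (SE 0.074, adjusted p = 2.05e-06), the sex difference at E16.5 was 0.49 (adjusted p = 0.000115) and the interaction was 0.55 (adjusted p = 0.00269). Rara, the alpha receptor, was called only in the uterus, with 70.5, 70.8 and 67.4 CPM in Amhr2+ and 82.6, 85.2 and 80.2 CPM in Gli1+ cells (log2 difference -0.25, adjusted p = 0.0162). Leaving out Amhr2+ replicate 1 ended that call (0.0745), as did scaling by library size alone (0.0762). In the fetal sex comparison at E16.5, Rara gave 0.18 with an adjusted p of 0.169, and passed without female replicate 3 (0.032) or male replicate 1 (0.0241).

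Among the RXR partners, Rxra had a higher mean level per kb than Rxrb in 5 of the 6 groups, the exception being Amhr2+ uterine cells, where Rxra stood at 14.6 ± 0.787 CPM per kb. Rxra fell with age in females, from 136, 148 and 138 CPM to 127, 118 and 112 CPM, by 0.24 on the log2 scale (adjusted p = 0.0118), a call lost without E14.5 female replicate 2 (0.063) or E16.5 female replicate 3 (0.0548). Its larger difference was in the uterus, where Amhr2+ libraries held 83.3, 80.3 and 74.8 CPM and Gli1+ libraries 117, 128 and 107 CPM (log2 difference -0.56, SE 0.0784, adjusted p = 0.00165). Rxrb was higher in females at E16.5, at 76.5, 74.5 and 77.6 CPM against 66, 57.4 and 59.1 CPM (log2 difference 0.33, adjusted p = 0.00212). Its rise with age in females (0.19, adjusted p = 0.0351) was lost when any 1 of the 6 female libraries was left out, with 8 of 11 alternatives in all (adjusted p 0.0562 to 0.139). Rxrg stayed at 0.329 CPM or below in every library and was not tested.

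The genes that supply and clear retinoic acid were listed apart from the receptors. Counts for this and the later gene lists stand beside the shares called over all genes tested. These were 6.28% and 27.3% between the sexes at E14.5 and E16.5, and 39.6% and 23.3% with age in females and males. They were 10.0% for the interaction and 23.9% in the uterus. Whether any list departs from its share was not tested. Of 10 genes of retinol uptake, binding and conversion, none was higher and 3 were lower in females at E14.5, and 2 were higher and 3 lower at E16.5. Crabp1, a cytoplasmic retinoic acid binding protein, was 3.59-fold higher in females at E16.5 (130 ± 11 against 36.1 ± 1.97 CPM, SD, n = 3). Aldh1a2, the enzyme that makes retinoic acid in embryonic mesenchyme, was 1.53-fold lower in females at E14.5 (354 ± 18.1 against 541 ± 37.1 CPM). With age in females 7 of the 10 rose and 2 fell, with Rdh10, which converts retinol to retinal, at -0.90 (adjusted p = 3.2e-07). All 10 differed in the uterus, 4 higher and 6 lower in Amhr2+ cells, with Rdh10 at 110 ± 25.5 against 52.9 ± 7.31 CPM. Of 5 genes known to respond to retinoic acid 3 were tested. Tgm2, a transglutaminase, was lower in females at both ages (-0.34 and -1.17), and Dhrs3, which returns retinal to retinol, rose with age in females (0.98, adjusted p = 0.000138).

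**Figure D3:**
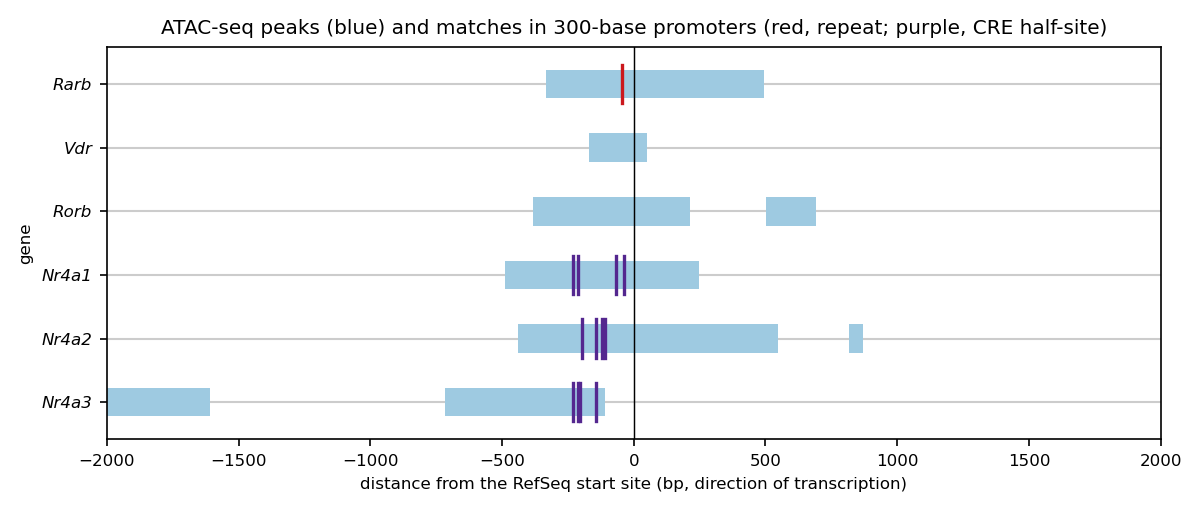
ATAC-seq peaks (blue) within 2 kb of the RefSeq start of 6 nuclear receptor genes, with distance in bp in the direction of transcription on the horizontal axis. The red mark is the half-site repeat of Rarb, inside its 831 bp peak, and the purple marks are the 4 CRE half-sites in each promoter of Nr4a1, Nr4a2 and Nr4a3.

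Thyroid hormone receptors repress their targets until thyroid hormone binds. Thra measured 174, 172 and 170 CPM in females and 160, 159 and 160 CPM in males at the earlier age. At E16.5 the values were 233, 252 and 245 CPM in females and 191, 197 and 182 CPM in males. It rose with age in females by 0.50 (SE 0.0543, adjusted p = 3.54e-06) and in males by 0.25 (adjusted p = 0.00308), and at E16.5 it was higher in females by 0.36 (SE 0.054, adjusted p = 0.000126). At E14.5 the sexes did not overlap either, but the difference of 0.11 was not called (adjusted p = 0.313). The interaction of 0.25 just passed (adjusted p = 0.0495) and was lost under 11 of 16 alternatives (0.0547 to 0.174), among them those without any 1 of the 6 female libraries, E14.5 male replicates 2 or 3, or E16.5 male replicate 3. In the uterus Thra was lower in Amhr2+ cells, at 194, 195 and 163 CPM against 243, 276 and 251 CPM in Gli1+ cells (log2 difference -0.48, adjusted p = 0.00545). The end of Thra, at chr11:98741811-98769006, overlaps Nr1d1 on the other strand, so reads in that stretch cannot be assigned in the fetal libraries. They are uncertain in the uterine libraries too, as whether the counting used strand is not given.

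Thrb, the beta receptor, was low, at 0.978 to 3.81 CPM over all 18 libraries. In females it went from 1.17, 1.04 and 0.978 CPM at E14.5 to 1.81, 1.48 and 1.59 CPM at E16.5 (0.61, adjusted p = 0.0425), and the call was lost in 10 of 11 alternatives (0.0547 to 0.128), including without any 1 of the 6 libraries. In males the same step was 0.56 (adjusted p = 0.0727), and it passed without E16.5 male replicate 3 (0.0479). Of 8 tested genes of thyroid hormone handling and response, 2 were lower in females at E14.5, and at E16.5 1 was higher and 4 were lower. Dio2, the deiodinase that makes active thyroid hormone inside cells, was 2.32-fold lower in females at E14.5 and 1.77-fold lower at E16.5. In the uterus it was higher in Amhr2+ cells, at 473 ± 45.9 CPM in Amhr2+ and 288 ± 30.5 CPM in Gli1+ cells (log2 difference 0.71, adjusted p = 0.00143). Klf9, a classical thyroid hormone response gene, was lower in females at both ages, by -1.13 (adjusted p = 0.0238) and -1.57 (adjusted p = 0.000651).

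Vdr, the vitamin D receptor at chr15:97854425-97908310, had a sex difference that was larger at E16.5 than at E14.5, by the interaction test. At E14.5 it measured 2.51, 3.19 and 2.57 CPM in females and 3.37, 2.56 and 2.63 CPM in males, which overlap. At E16.5 it measured 6.61, 8.32 and 6.92 CPM in females and 2.83, 2.51 and 2.49 CPM in males. It rose 2.65-fold with age in females (adjusted p = 5.29e-06) and gave -0.11 in males (adjusted p = 0.668). The sex difference at E16.5 was 2.79-fold (log2 difference 1.48, SE 0.153, adjusted p = 2.39e-06), and it differed from that at E14.5 by 1.52 (SE 0.225, adjusted p = 0.000351). None of these calls was lost under any alternative run. In the uterus Vdr stood at 30, 33.3 and 23.9 CPM in Amhr2+ and 30.7, 32.7 and 28 CPM in Gli1+ cells, with a difference of -0.07 (adjusted p = 0.736). The uterine and fetal libraries were made with different kits, so their levels were not compared by a test. An ATAC-seq peak of 220 bp covered the Vdr start.

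Of 7 genes of vitamin D metabolism and response only 4 passed the filter in the fetal table. Cyp27a1, a mitochondrial sterol and vitamin D hydroxylase, was the only one named by the rule. It was lower in females at E16.5, at 15.6 ± 1.26 against 31.9 ± 1.31 CPM (2.05-fold, adjusted p = 2.35e-07), and rose with age in both sexes. The other 3 tested genes were not called between the sexes at either age, and at E14.5 none of the 4 had an unadjusted p under 0.05.

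**Figure D4:**
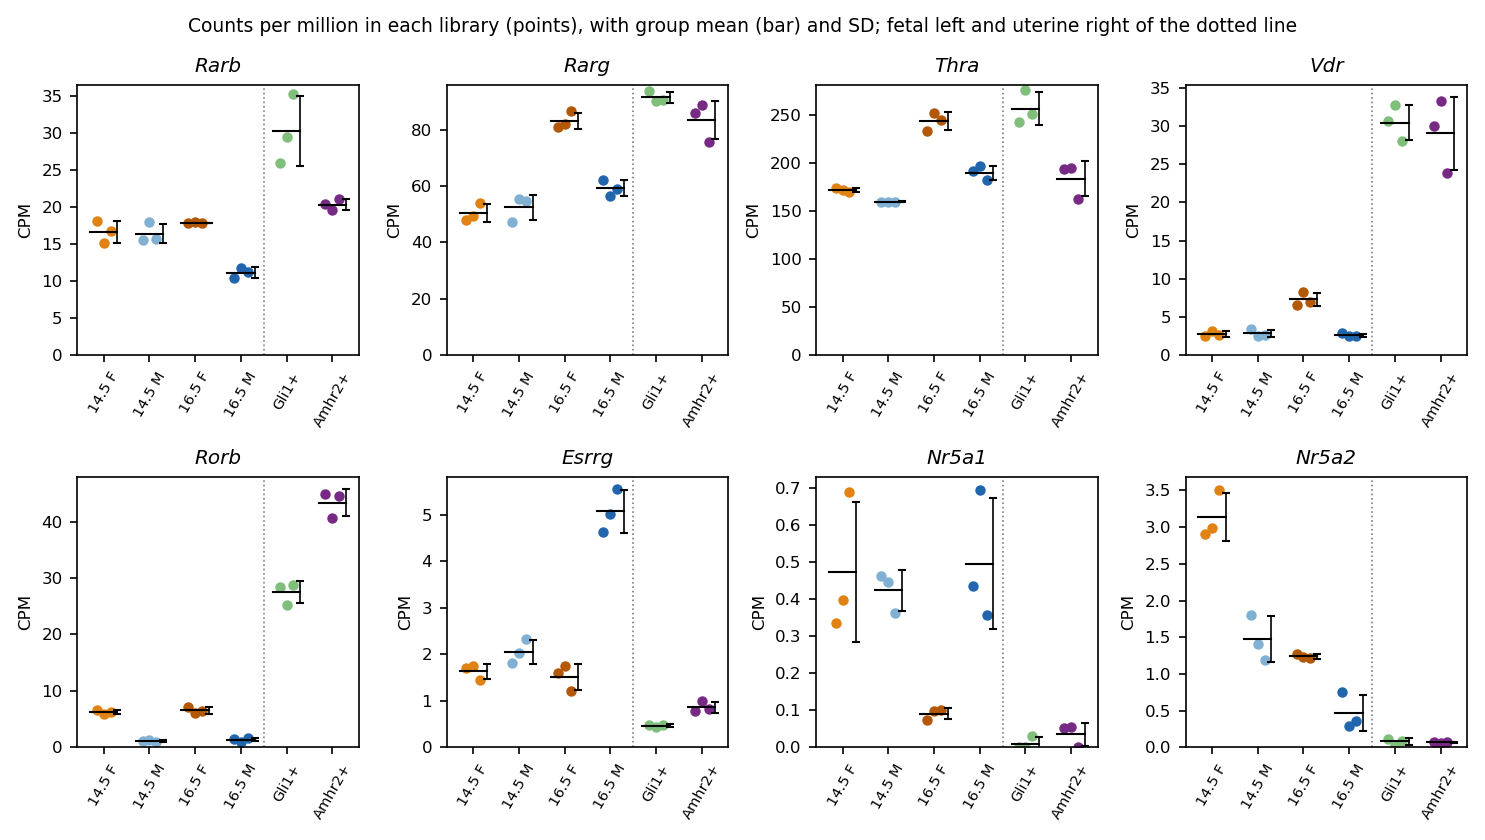
CPM of 8 nuclear receptor genes in each of the 18 libraries (points), with the group mean and its SD (n = 3), fetal groups left and uterine groups right of the dotted line. Vdr is high only in E16.5 females among fetal groups, Rorb is higher in females at both ages, and Esrrg is highest in E16.5 males.

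The ROR and REV-ERB receptors act on the same DNA sites, RORs as activators and REV-ERBs (Nr1d1 and Nr1d2) as repressors of the circadian clock. Rorb, at chr19:18930605-19111196, had the largest sex difference of the 28 tested genes at E14.5, at 6.65, 5.85 and 6.26 CPM in females against 1.05, 1.27 and 0.974 CPM in males. At E16.5 it stood at 7.15, 6.01 and 6.44 CPM in females and 1.43, 1.01 and 1.62 CPM in males. The lowest female library lay well above the highest male library at both ages. The difference was 5.69-fold at E14.5 (log2 2.51, SE 0.18, adjusted p = 9.31e-07) and 4.75-fold at E16.5 (log2 2.25, SE 0.169, adjusted p = 8.76e-08). Neither call was lost under any alternative run, and the interaction was -0.26 (SE 0.246, adjusted p = 0.58). In the uterus Rorb was higher in Amhr2+ cells, at 44.9, 40.6 and 44.5 CPM against 28.4, 25.3 and 28.8 CPM (log2 difference 0.66, adjusted p = 0.000816).

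Rora was also higher in females at E16.5 and in Amhr2+ uterine cells. At E16.5 it measured 23.2, 19.503 and 21.6 CPM in females and 11.2, 15.7 and 16.1 CPM in males (log2 difference 0.58, SE 0.17, adjusted p = 0.0213). That call was lost without E16.5 female replicate 1 (0.0848), female replicate 3 (0.0502) or male replicate 1 (0.0539). In the uterus it was higher in Amhr2+ cells, at 45.8, 46.4 and 53.5 CPM against 27.5, 30.5 and 31.1 CPM (log2 difference 0.71, SE 0.0864, adjusted p = 0.000826). Its row held 33 ATAC-seq peaks over its length on chromosome 9, the most of the 38 genes.

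The REV-ERB genes were called only in the uterus and in opposite directions. Nr1d1 was lower in Amhr2+ cells, at 3.16, 2.97 and 2.54 CPM against 4.59, 5.79 and 3.71 CPM (log2 difference -0.70, adjusted p = 0.0373). The call was lost in 6 of 10 alternatives (0.0563 to 0.0959), including without each library except Gli1+ replicate 3. The Nr1d1 row overlaps the end of Thra on the other strand. Thra was far more abundant and also lower in Amhr2+ cells, at a mean of 184 against 257 CPM. Whether the counting used strand is not given, so the reads of that stretch are uncertain. Nr1d2 was higher in Amhr2+ cells, at 27.2, 27.2 and 29.8 CPM against 19.54, 24.3 and 18.7 CPM (log2 difference 0.43, adjusted p = 0.0238), and was lost without Amhr2+ replicates 1 (0.0655) or 3 (0.0619) or Gli1+ replicates 1 (0.0836) or 3 (0.0617). In fetal cells Nr1d2 at E16.5 gave -0.29 between the sexes (adjusted p = 0.441), and passed with the replicate block (0.0151). Its libraries at E16.5 ranged from 14.48 to 23.1 CPM in females and 16.2 to 26.6 CPM in males. With age in females it gave -0.64 (adjusted p = 0.0665), which passed without E16.5 female replicate 3 (-0.90, 0.0127), with DESeq2 (0.0474) and with scaling by library size alone (0.0414).

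Of 15 other clock genes, 2 were lower in females at E14.5, and 3 were higher and 4 lower at E16.5. Bhlhe40, a clock repressor, was lower in females at both ages, at 4.06 ± 0.252 against 9.26 ± 1.32 CPM at E14.5 and 4.41 ± 0.867 against 9.4 ± 3.8 CPM at E16.5. Npas2, a partner of the clock activator Arntl, was lower in females at E14.5 (-0.61, adjusted p = 0.0017), higher in females at E16.5 (0.33, adjusted p = 0.0181) and higher in Amhr2+ uterine cells (0.71, adjusted p = 0.0065). Nfil3, a repressor in the clock output, rose with age in females by 1.42 (adjusted p = 1.1e-05) and in males by 0.71 (adjusted p = 0.00479), and was lower in Amhr2+ cells (-0.85, adjusted p = 0.00347). The labels give no time of day for the collections.

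PPARs sense fatty acids, LXRs (Nr1h2 and Nr1h3) oxidised sterols and FXR (Nr1h4) bile acids, all as partners of RXRs. Ppard, the widely expressed PPAR, was higher in females at E16.5, at 31.7, 37.1 and 32.4 CPM against 27.5, 27.7 and 28.1 CPM (log2 difference 0.28, adjusted p = 0.00621), and the call was lost without E16.5 female replicate 2 (0.0635). Ppara, the PPAR of fatty acid oxidation, was lower in females at E16.5, at 2.77, 2.95 and 2.27 CPM against 3.03, 4.73 and 4.49 CPM (log2 difference -0.62, adjusted p = 0.0238). It lost the call in a fit of only the libraries compared (0.0591), without female replicate 3 (0.088), and without male replicates 2 (0.094) or 3 (0.0825). Pparg, the adipocyte PPAR, did not pass the filter. It measured 0.22, 0.246 and 0.253 CPM in E16.5 females and 0.0969, 0.107 and 0.0646 CPM in E16.5 males, with 0.0541 CPM or less in every E14.5 library. Without the filter, its difference with age in females was called (adjusted p = 0.0018).

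Among 10 tested PPAR target genes, 3 were higher and 3 lower in females at E16.5. Angptl4, an inhibitor of lipoprotein lipase, was higher in females at both ages, by 0.33 (adjusted p = 0.0405) and 0.57 (adjusted p = 0.000178), and lower in Amhr2+ uterine cells (-0.47, adjusted p = 0.0123). Among the adipocyte markers Cidec, Cidea and Lep had 3 counts or fewer in total in each group, and the whole list summed to 0.96 CPM or less in every library.

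Nr1h2, the widely expressed LXR, rose with age in females, from 51.6, 49.7 and 49.5 CPM to 64.4, 66.9 and 69.9 CPM (log2 difference 0.42, SE 0.083, adjusted p = 0.00105). In the uterus it was lower in Amhr2+ cells, at 48.8, 50.4 and 48.3 CPM against 58.3, 56.3 and 57.1 CPM (-0.22, adjusted p = 0.0271), a call lost in 7 of 10 alternatives (0.0548 to 0.13), including without each library except Gli1+ replicate 2. Nr1h3, the LXR of liver and macrophages, was at 0.735, 0.916 and 0.471 CPM in females at E14.5 and 1.2, 1.03 and 1.14 CPM in females at E16.5 (0.67, adjusted p = 0.0377). That call was lost in 10 of 11 alternatives (0.0539 to 0.179), including without each of the 6 libraries except E14.5 female replicate 2. Nr1h4 lay at 0.0541 CPM or less in E14.5 libraries and between 0.172 and 0.318 CPM at E16.5. Fitted without the filter, its age difference was called in females (adjusted p = 0.00224) and in males (0.00523). Of 7 tested sterol and bile acid target genes, 2 were higher and 3 lower in females at E16.5. Mylip, which degrades the LDL receptor, and the cholesterol exporter Abca1 were higher, by 0.53 (adjusted p = 0.0235) and 0.50 (adjusted p = 0.0498). In the uterus Apoe was lower (-0.84) and Scd1, a fatty acid desaturase, higher (0.57) in Amhr2+ cells.

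Nr1i2 and Nr1i3, the receptors of foreign compounds in liver, and Hnf4a, a liver and kidney epithelium factor, stayed at or below 0.0539, 0.266 and 0.226 CPM. The liver and nephron markers summed to 2.4 to 13.2 CPM over the 18 libraries, with Lrp2 leading in each group. Nr2e1 and Nr2e3, receptors of neural stem cells and photoreceptors, reached at most 0.0362 and 0.0668 CPM. At these depths 3 counts, taken as the floor of detection, correspond to 0.0464 to 0.128 CPM in fetal libraries, by raw library totals.

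Estrogen-related receptors have no known natural hormone and drive mitochondrial and oxidative genes with PGC-1 coactivators. Esrrg, at chr1:187609029-188214885, was lower in females at E16.5, at 1.59, 1.75 and 1.21 CPM against 4.62, 5.02 and 5.56 CPM in males. At E14.5 it stood at 1.7, 1.75 and 1.45 CPM in females and 1.81, 2.02 and 2.33 CPM in males. E16.5 males thus lay above all other fetal libraries. The sex difference at E16.5 was 3.34-fold (log2 -1.74, SE 0.171, adjusted p = 1.52e-06), the rise in males 2.44-fold (adjusted p = 3.32e-05) and the interaction -1.39 (SE 0.253, adjusted p = 0.00186), and none of these was lost under any alternative run. In the uterus Esrrg was at 0.778, 0.998 and 0.814 CPM in Amhr2+ and 0.477, 0.433 and 0.482 CPM in Gli1+ cells (0.89, adjusted p = 0.0405). That call was lost in 9 of 10 alternatives (0.0589 to 0.146), including without any 1 of the 6 libraries.

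Esrra showed the opposite sex difference from Esrrg at E16.5. It measured 11, 11.3 and 12.2 CPM in females and 9.3, 11.2 and 10.6 CPM in males at the earlier age. At E16.5 the values were 16.4, 16.4 and 18.6 CPM in females and 12.4, 13.1 and 12.9 CPM in males. It was higher in E16.5 females by 0.42 (SE 0.0922, adjusted p = 0.00301) and rose with age in females by 0.57 (adjusted p = 0.000231). In males it rose by 0.30 (adjusted p = 0.0302), a call lost in 6 of 11 alternatives (0.0516 to 0.103), including without E14.5 male replicates 1 or 3 or E16.5 male replicates 2 or 3. In the uterus it was at 11.8, 11.8 and 12 CPM in Amhr2+ and 15, 15.2 and 13.8 CPM in Gli1+ cells (-0.30, adjusted p = 0.0445), which was lost in 8 of 10 alternatives (0.0535 to 0.167), including without each library except Gli1+ replicate 3. The Esrra row overlaps Trmt112 on the other strand. Esrrb, the family member of stem cells and inner ear, reached at most 0.29 CPM.

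Of 10 coactivator and mitochondrial genes linked to these receptors, 1 was higher and 3 were lower in females at E16.5. Ppargc1a, the inducible PGC-1 coactivator, was 1.93-fold lower in females (5.18 ± 0.503 against 10 ± 0.342 CPM, adjusted p = 3.45e-05) and rose 2.06-fold with age in males. Cycs, which encodes cytochrome c, was 1.44-fold lower in females at E16.5. Of 18 coregulators of nuclear receptors at large, edgeR called 0 between the sexes at E14.5, where 2 had an unadjusted p under 0.05 and DESeq2 called 0. At E16.5 it called Ncoa1 (-0.49, adjusted p = 0.00274) and Carm1 (0.21, adjusted p = 0.0346), of which Carm1 overlapped between the sexes. In the uterus Med1 alone was called (0.27, adjusted p = 0.0452).

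The Nr4a genes encode immediate-early receptors that act without a ligand and are switched on within minutes by many stimuli, in part through CREB at CRE sites. The RefSeq promoters of all 3 on GRCm38.p6 are shown because they share one feature, 4 matches each to the CRE half-site TGACG on either strand, in capitals (CGTCA where it lies on the other strand). They lie at chr15:101266596-101266895 on the plus strand, chr2:57123954-57124253 on the minus strand and chr4:48045055-48045354 on the plus strand.
Nr4a1: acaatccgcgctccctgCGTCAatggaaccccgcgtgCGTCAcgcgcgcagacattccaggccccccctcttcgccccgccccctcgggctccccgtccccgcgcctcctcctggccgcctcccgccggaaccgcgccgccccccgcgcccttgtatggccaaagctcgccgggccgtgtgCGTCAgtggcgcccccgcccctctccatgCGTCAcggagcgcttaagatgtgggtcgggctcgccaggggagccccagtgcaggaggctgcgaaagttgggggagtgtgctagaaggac
Nr4a2: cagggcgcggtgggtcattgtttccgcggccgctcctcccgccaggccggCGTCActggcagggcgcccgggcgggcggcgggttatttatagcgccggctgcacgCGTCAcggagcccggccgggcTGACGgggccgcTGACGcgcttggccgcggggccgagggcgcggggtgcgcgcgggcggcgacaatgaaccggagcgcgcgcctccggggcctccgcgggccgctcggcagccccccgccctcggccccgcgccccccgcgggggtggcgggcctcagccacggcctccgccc
Nr4a3: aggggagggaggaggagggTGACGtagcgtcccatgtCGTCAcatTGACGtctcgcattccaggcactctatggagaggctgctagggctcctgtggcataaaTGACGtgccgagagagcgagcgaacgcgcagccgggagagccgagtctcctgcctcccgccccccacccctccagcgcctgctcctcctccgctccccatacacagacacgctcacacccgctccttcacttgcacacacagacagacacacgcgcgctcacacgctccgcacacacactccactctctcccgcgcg
At least 1 match was present in 6837 of 32851 promoters (20.8%), and 4 or more in 76 (0.231%), among which the Nr4a genes were the only ones of the 36 receptor genes in the table. The cut of 4 equals the number in each of these 3 promoters, so this share describes them and tests nothing. The promoters of Nr4a1 and Nr4a2 lay wholly inside ATAC-seq peaks, at chr15:101266357-101267091 and chr2:57123456-57124442, and the peak chr4:48044587-48045196 covered 142 of the 300 bases for Nr4a3.

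In some groups Nr4a1 varied widely between libraries, together with the sum of other immediate-early genes. The other Nr4a genes did not always share that order. In E16.5 females the sum was lowest in replicate 2, at 11225 CPM, but Nr4a2 and Nr4a3 were lowest in replicate 1. In E14.5 females Nr4a2 spanned only 11.3 to 13.9 CPM and was highest in replicate 2, where the sum was lowest, at 10315 CPM. Nr4a1 measured 304, 1275 and 1945 CPM in E16.5 males, where the 15 listed immediate-early genes, led by Egr1, summed to 4596, 13903 and 23123 CPM in the same order. In Gli1+ uterine cells it measured 200, 59.7 and 1000 CPM beside sums of 6700, 1286 and 14619 CPM. The library with the lowest sum was the lowest for Nr4a1 in both groups, and the library with the highest sum was the highest. In Amhr2+ cells it measured 140, 147 and 180 CPM beside 4370, 4375 and 5804 CPM. Nr4a1 was called in no comparison. At E16.5 its sex difference was 0.01 with an SE of 0.573, and with age in females it gave 1.04 (adjusted p = 0.195) with groups that did not overlap, which passed in a fit of only the libraries compared (0.0413).

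Nr4a3 also spread widely, at 31.3, 39.4 and 135 CPM in E16.5 females and 9.32, 42.6 and 138 CPM in E16.5 males. In the uterus it measured 4.74, 4.13 and 4.51 CPM in Amhr2+ and 12.45, 9.01 and 48.2 CPM in Gli1+ cells, and these groups did not overlap. The difference of -2.38 (SE 0.731) was not called (adjusted p = 0.0744). It passed with DESeq2 (0.00752), without Gli1+ replicate 2 (-2.77, 0.0386) and without Gli1+ replicate 3 (-1.27, 0.0033). The part that the immediate-early sums play in the Nr4a values was not tested.

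Nr4a2 was the one family member with calls. It measured 12.9, 13.9 and 11.3 CPM in females at E14.5 and 34.4, 43.4 and 64.9 CPM in females at E16.5, a 3.74-fold rise (log2 1.90, SE 0.351, adjusted p = 0.00257). E14.5 males held 12, 15.4 and 14.503 CPM and E16.5 males 12.3, 24.4 and 31.6 CPM. The male step of 0.70 was not called (adjusted p = 0.182) and passed without E16.5 male replicate 1 (0.99, 0.0179), the library with the lowest immediate-early sum of that group. The sex difference at E16.5 was 1.06 (adjusted p = 0.0431) and was lost in 5 of 11 alternatives (0.0827 to 0.157), among them those without female replicates 2 or 3 or male replicate 2. With the replicate block the interaction, which was not called otherwise (adjusted p = 0.173), was 1.25 (0.000404). Immediate-early sums at E16.5 were 15486, 11225 and 20880 CPM in females, and of the 15 genes only Jun was called with age in females (1.39, adjusted p = 0.0302), while edgeR and DESeq2 each called 0 of them between the sexes at either age. At an unadjusted p under 0.05, edgeR gave 0 of the 15 at E14.5 and 1 at E16.5.

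**Figure D5:**
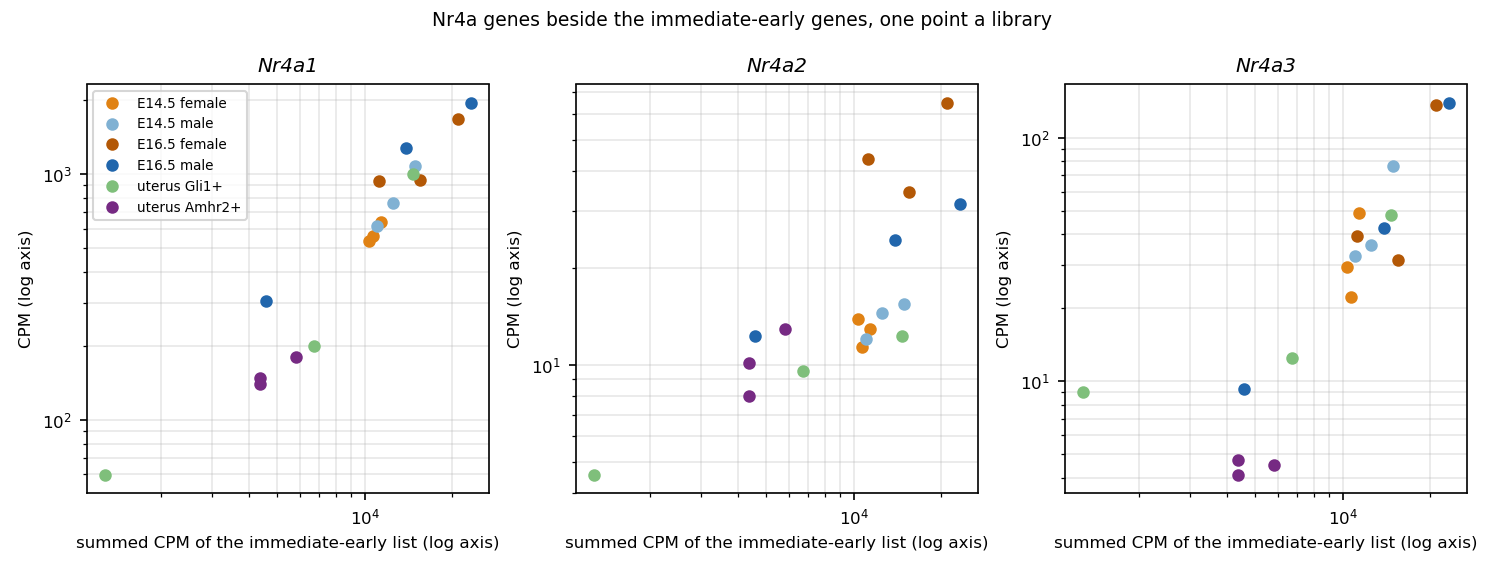
CPM of Nr4a1, Nr4a2 and Nr4a3 (vertical, log axis) against the summed CPM of 15 immediate-early genes (horizontal, log axis) in each library, coloured by group. The E16.5 male libraries spread from 304 to 1945 CPM of Nr4a1 and from 4596 to 23123 CPM of the sum, and the E16.5 female libraries lie highest for Nr4a2.

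Nr5a1 (SF-1) directs gonad and adrenal steroid-producing cells, Nr0b1 (DAX-1) represses it, and Nr5a2 (LRH-1) is its close relative in ovary, liver and gut. Nr5a1 was scarce, at 0.334, 0.398 and 0.688 CPM in females and 0.463, 0.446 and 0.361 CPM in males at the earlier age. At E16.5 the values were 0.0735, 0.0985 and 0.101 CPM in females and 0.436, 0.694 and 0.355 CPM in males. Only the E16.5 females lay apart, at 3 or 4 counts a library. It fell with age in females by 2.34 on the log2 scale (SE 0.46, adjusted p = 0.000961), was lower in females at E16.5 by -2.37 (adjusted p = 0.000716), and the interaction was -2.55 (SE 0.576, adjusted p = 0.00874). The row overlaps Nr5a1os on the other strand, and no ATAC-seq peak lay within 1 kb of its start.

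Nr0b1, on the X chromosome, fell with age in females from 0.468, 0.398 and 0.543 CPM to 0.196, 0.246 and 0.101 CPM, by 1.36 on the log2 scale (adjusted p = 0.0136), a call lost without E14.5 female replicate 3 (0.0537) or E16.5 female replicate 3 (0.0546). The steroid-producing cell markers summed to 13 to 18.8 CPM at E14.5 and 7.93 to 12.6 CPM at E16.5, led by Star, which carries cholesterol into mitochondria. Star fell with age in females, from 14.7 ± 0.29 to 7.67 ± 1.53 CPM (-0.94, adjusted p = 0.00107), and in males by 0.57 on the log2 scale (adjusted p = 0.0339). Of 7 tested genes of a wider steroid-production list that includes Star, 3 fell and 2 rose with age in females. Inha, of that list, rose (0.77, adjusted p = 0.000881). Cyp11a1, Hsd3b1 and Cyp11b1 had 3 counts or fewer in total in E14.5 and in E16.5 females. In males of both ages Cyp11b1 did too, whereas Cyp11a1 and Hsd3b1 had more. Whether the changes of these markers and of Nr5a1 are linked was not tested.

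Nr5a2 was higher in females at both ages and fell with age in both sexes. It measured 2.91, 2.99 and 3.51 CPM in females and 1.81, 1.41 and 1.19 CPM in males at the earlier age. At E16.5 the values were 1.27, 1.23 and 1.21 CPM in females and 0.751, 0.294 and 0.355 CPM in males. The sex difference was 1.12 at E14.5 (SE 0.249, adjusted p = 0.0125) and 1.42 at E16.5 (adjusted p = 0.00164), and the fall with age was -1.34 in females (adjusted p = 0.000643) and -1.63 in males (adjusted p = 0.000591). The E14.5 call was lost without E14.5 female replicate 3 (0.0687), male replicate 2 (0.0552) or male replicate 3 (0.0888). E14.5 female replicate 3 also stood apart for erythroid markers, at 979 CPM against 6.08 to 26.9 CPM in the other E14.5 libraries. In the uterus Nr5a2 was at 0.119 CPM or less and was not tested. Nr0b2 (SHP), a partner without a DNA-binding domain, had no count in any library.

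Among the remaining orphan receptors, Nr2c1 had 2 calls, Nr6a1 had 1 and Nr2c2 and Nr2f6 had none. Nr2c1, the testicular receptor 2, was higher in females at E16.5, at 32.2, 31.3 and 36 CPM against 27.2, 26.4 and 29.5 CPM (0.26, adjusted p = 0.0137), and fell with age in males from 33.5, 33 and 34.2 CPM by 0.28 on the log2 scale (adjusted p = 0.0107). The sex call was lost in a fit of only the libraries compared (0.0594), without female replicate 3 (0.0714) and without male replicate 2 (0.0607). Nr6a1, the germ cell nuclear factor, fell with age in males from 4.67, 4.41 and 3.97 CPM to 3.12, 3.63 and 2.63 CPM, by 0.48 on the log2 scale (adjusted p = 0.0441). That call was lost in 7 of 11 alternatives (0.0555 to 0.179), including without each male library except E16.5 male replicate 2. In females its step of -0.42 was not called (adjusted p = 0.0578). Nr2c2 and Nr2f6, a close relative of the COUP-TF genes, were called in no comparison. Nr2c2 ranged from 50.6 to 69.7 CPM in fetal and from 106 to 123 CPM in uterine libraries, and Nr2f6 from 30.3 to 55.8 CPM and from 38.4 to 51.3 CPM. Nr2f6 with age in males gave -0.38 (adjusted p = 0.0818) and passed without E14.5 male replicate 1 (-0.54, 0.00718), with DESeq2 (0.048) and with scaling by library size alone (0.0383).

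Set side by side, 6 genes were called both between the sexes at E16.5 and between the uterine populations, which share no library. Of the genes tested in both tables, these were 6 of 13 receptor genes called at E16.5 (46.2%) and 6 of 11 called in the uterus (54.5%), beside 36.6% and 44% over all genes called. Rora and Rorb, 2 of the 6, had the same sign in both, higher in females and higher in Amhr2+ cells. The other 4 had opposite signs (66.7% of the 6, beside 57.3% of the 1674 genes called in both): Thra, Rarb and Esrra were higher in females and lower in Amhr2+ cells, and Esrrg was lower in females and higher in Amhr2+ cells. Of these uterine values, those of Esrra and Esrrg were lost under most alternatives, as given above.

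Open chromatin was listed near most of these genes. A peak of the authors' single list of 71040 lay within 1 kb of an annotated start for 31 of the 38 genes, and for 27 of the 28 genes tested in the fetal table (96.4%), beside 89.1% of 14575 tested genes with an annotated start. The 7 genes without one were Nr1h4, Nr1i2, Nr1i3, Nr2e1, Nr2e3, Nr5a1 and Nr0b2, of which only Nr5a1 passed the filter on low counts. Requiring a peak over the start base itself left 29 genes. The receptor half-site AGGTCA, searched on both strands, was present in 12 of the 55 promoters of these genes (21.8%) and in 16.3% of all 32851 promoters.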

How the data were processed

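RNA-seq was available for 12 fetal and 6 uterine libraries and ATAC-seq as one peak list over 8 fetal samples. The authors deposited whole-number read counts per gene in 2 tables, and the peak list gives positions with no value per sample, per the file headers. The submitters' processing notes name Bowtie 1.2, MACS2 2.1.1, Picard, SAMtools 1.3.1, STAR 2.5, Subread 1.5.0-p1, bedtools 2.24.0, featureCounts and build mm10, with no role or setting. The fetal kit kept no strand and the uterine kit did, per the labels' protocols, and whether counting used strand is not given in the sources used here. The 2 tables were therefore never fitted together. Rows of 15 of the 38 genes overlap another gene's row, and their shared reads are uncertain.

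Counts were filtered with filterByExpr, scaled by TMM and fitted by group with edgeR 4.0.16 (R 4.3.3) in robust quasi-likelihood models, over 17858 fetal and 16195 uterine genes. Contrasts were female minus male, E16.5 minus E14.5, their interaction and Amhr2+ minus Gli1+, with Benjamini-Hochberg adjustment over all genes tested. The standard error is the absolute log2 fold change divided by the square root of F. Alternatives were library size only, no filter, DESeq2 1.42.0, a replicate block, only the libraries compared, and each replicate left out. Exon lengths are from GENCODE vM21, promoters from RefSeq on GRCm38.p6, where 36 of the 38 genes matched. All tested receptor genes are described; pathway genes are named by a rule, at most 2 per list and comparison, with a mean of at least 5 CPM; 2 genes that the rule names are not reported here. The 38 genes, the pathway lists and the cell type markers were chosen with earlier results of these data known. Replicates of every pair differed by more than counting noise. Same-numbered libraries of the sexes at E16.5 deviated together (r = 0.284, 0.115 and 0.396), so these numbers were read as pairs from the data, not from the labels. Female replicate 2 also correlated with male replicate 1 (0.108). The main fits used no pairs, so the p-values given for E16.5 do not take this pairing into account. Only the replicate block used it. In the uterus the same-numbered r were 0.00176, 0.221 and 0.243. Elsewhere than E16.5 the numbers were not read as pairs, but the block was still run there as an alternative. For the interaction it also paired the E14.5 libraries by number.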

Additional observations from a re-analysis of the deposited data

Results flagged for a closer look

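The sex difference (log2, females minus males) at E16.5 differed from that at E14.5 for the 17 genes given here. The test was of the difference itself, edgeR's interaction term. These 17 are the receptor genes called and the pathway genes that the rule names for this comparison, at most 2 per list. They are not all the described genes that this test called. Among the receptors it was larger at E16.5 by 1.52 for Vdr, 0.66 for Rarb, 0.55 for Rarg and 0.25 for Thra, and shifted toward males by -1.39 for Esrrg and -2.55 for Nr5a1. The Thra call was lost under 11 of 16 alternatives.

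Retinoid genes gave 1.73 for Crabp1, 0.88 for Crabp2, 0.76 for Dhrs3 and -0.83 for Tgm2. Of the 10 genes of retinol uptake, binding and conversion, the test called 3 up and 1 down, of which only Crabp1 and Crabp2 are named here. The thyroid hormone transporter Slc16a10 gave -0.85. The clock genes Npas2 and Hlf gave 0.94 and -0.69. The lipid, sterol and energy genes given here shifted toward males, with Lpl at -0.53, Cyp27a1 at -0.87, Ppargc1a at -0.64 and Scarb1 at -0.48.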

How the results depend on the processing

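No value of the receptor genes that was called, in the main fit or in the alternative, turned direction under any alternative run. Values called in neither fit were not checked for direction. Calls were lost in 3 of 307 values for sex at E14.5, 16 of 308 for sex at E16.5, 32 of 308 for age in females, 13 of 308 for age in males, 11 of 448 for the interaction and 36 of 250 in the uterus, and gained in 0, 3, 8, 7, 4 and 3. These totals cover every tested receptor gene, and only a gene called in the main fit can lose a call. In the same order, the main fit called only 2, 15, 13, 7, 6 and 11 genes. The losses are therefore a larger share of the values that could be lost. Library size as the only scaling left 7 receptor genes called in the uterus. Leaving out 1 replicate at a time gave 1 to 2 receptor genes called and 553 to 1678 of all genes for sex at E14.5. For sex at E16.5 it gave 12 to 15 and 3618 to 5745. With age it gave 10 to 12 and 5249 to 6460 in females, below the 13 and 7068 of the main fit, and 6 to 10 and 3364 to 3924 in males. For the interaction it gave 5 to 7 and 1335 to 2687. In the uterus it gave 5 to 9 and 1949 to 3521, below the 11 and 3866 of the main fit. Calls gained without 1 library and not given above were Ppara (0.0167) and Rara (0.0265) with age in males without E16.5 male replicate 1, Ppard with age in females without E16.5 female replicate 1 (0.0423), Nr6a1 without E16.5 female replicate 2 (0.0254), and the interaction of Nr1h2 without E14.5 male replicate 1 (0.0145). The cause was not tested.

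With the replicate block, pairing same-numbered libraries, 16 receptor genes and 5901 of all genes were called between the sexes at E16.5, and 8 and 2592 for the interaction, which added Ppard (0.0449) and Nr4a2. Where the numbers were not read as pairs, the block gave 10 receptor genes for age in females and 9 in the uterus (4725 of all genes). Genes near 0.1 CPM are limited by depth: 3 counts correspond to 0.0464 to 0.128 CPM in the fetal libraries.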
